A study of Saccharomyces cerevisiae with 8 samples.

Results

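The comparison concerns the origin recognition complex (ORC) at its binding sites in the genome of *S. cerevisiae* in G1-phase and in G2-phase. The members are 355 loci. They were obtained by pooling the 5588 ORC binding events of 4 deposited lists and chaining events up to 250 bp apart. The same number of loci results when the MCM2-7 events of the series are added, with 9293 events in 6 lists. ChIP-Exo is chromatin immunoprecipitation in which lambda exonuclease then trims the DNA back to the bound protein, and an event is the single base at which the authors' caller placed a bound protein.

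All 4 libraries come from crosslinked cultures of strain YC795 in the W303 background, in which Orc2, a subunit of ORC, carries a FLAG tag, and were precipitated with an anti-Flag antibody. Cells of the G1 group were arrested with α-factor, the mating pheromone that stops cells before replication. Cells of the G2 group were arrested with nocodazole, a drug that blocks the mitotic spindle. Each group has 2 biological replicates, 1 tagged strain was used throughout, and the arrests rather than cycling cells stand for the phases. Orc2 after release into S-phase was not analysed here. The G1 lists hold 1170 events in replicate 1 and 1379 in replicate 2, and the G2 lists 2178 and 861. Read counts are not part of these lists and the study's methods give read depth in general terms only, so the depth of each library is unknown, and a list can be longer because of depth, of enrichment or of binding, which cannot be told apart.

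ORC is a complex of several subunits that binds replication origins throughout the cell cycle of budding yeast. In G1-phase it loads the MCM2-7 helicase onto DNA as double hexamers with the help of Cdc6 and Cdt1, and in G2-phase kinase activity prevents new loading. The DNA at an origin holds the ARS consensus sequence (ACS), the T-rich element that ORC contacts. The same complex also sits at the silencers of the silent mating-type loci, where it helps to recruit Sir proteins. The comparison asks whether ORC occupied the same sites, as often and in the same order, in both phases.

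The label was checked against the sequence under the loci. A match to at least 10 of the 11 ACS letters on either strand was present within 100 bp of the centre of 298 of 355 loci (83.9%), against 19.7% of 57203 genome tiles of the same 211 bp. A full match of 11 letters was present at 121 loci (34.1%) and in 1.30% of the tiles. The ACS letters are mostly A and T, and the tiles were not matched to the loci for base composition. The loci with an event in all 4 lists had a median GC content of 29.4%. The part of base composition in the contrast was not tested. Nor was that of any choice of origins made before the lists were deposited, which would itself favour loci with an ACS. The best matches of 13 loci on which the results turn are shown here on the strand of the T-rich ACS, from the R64 RefSeq genome, with the 11 ACS letters in capitals and 20 bp on either side. R64 is the sequence of strain S288C and not of W303. The first 3 are origins used in studies of single origins, the next 5 ranked higher in both G1 lists and the last 5 ranked higher in both G2 lists, except that ARS1021 of the first 3 also belongs to the latter.
ARS1 (chrIV:462576-462626, minus strand): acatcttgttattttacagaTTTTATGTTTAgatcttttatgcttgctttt
ARS607 (chrVI:199396-199446, plus strand): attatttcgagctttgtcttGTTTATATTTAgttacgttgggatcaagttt
ARS1021 (chrX:683872-683922, minus strand): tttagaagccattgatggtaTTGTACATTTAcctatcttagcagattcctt
ARS1007 (chrX:113720-113770, plus strand): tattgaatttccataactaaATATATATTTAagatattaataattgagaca
ARS1524 (chrXV:783363-783413, plus strand): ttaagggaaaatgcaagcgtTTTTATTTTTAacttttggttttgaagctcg
ARS102 (chrI:733-783, minus strand): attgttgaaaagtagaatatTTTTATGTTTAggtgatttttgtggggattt
proARS1301 (chrXIII:6276-6326, minus strand): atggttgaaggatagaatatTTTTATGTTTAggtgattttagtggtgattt
ARS1519 (chrXV:656734-656784, minus strand): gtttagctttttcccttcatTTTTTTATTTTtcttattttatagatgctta
ARS922 (chrIX:411971-412021, minus strand): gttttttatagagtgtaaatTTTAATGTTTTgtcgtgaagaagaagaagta
ARS514.5 (chrV:301768-301818, minus strand): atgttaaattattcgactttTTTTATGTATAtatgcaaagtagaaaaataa
ARS1218 (chrXII:603077-603127, minus strand): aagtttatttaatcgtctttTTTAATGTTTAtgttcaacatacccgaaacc
ARS305 (chrIII:39561-39611, minus strand): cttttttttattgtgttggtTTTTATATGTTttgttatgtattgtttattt
ARS1114.5 (chrXI:457409-457459, plus strand): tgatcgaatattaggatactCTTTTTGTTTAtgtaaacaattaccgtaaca
ARS1, ARS102 and proARS1301 have full matches, ARS1114.5 matches 9 letters and the other 9 match 10. These full matches are the same 11 letters. ARS102 and proARS1301 lie 706 and 6290 bp from the ends of chromosomes I and XIII.

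Nearly all loci in these lists were occupied in both phases. In G1, 352 loci had an event in replicate 1 and 348 in replicate 2, and in G2 there were 353 and 325. An event in each of the 4 lists was found at 322 loci, and 24 further loci lacked an event in G2 replicate 2 only, which is the shortest list. A single locus had events in both G1 lists and in neither G2 list. It is ARS451 (chromosome IV, centre 748414), which lies between the convergent genes TAF12 and SWI5. It held 1 event in G1 replicate 1 (score 207, place 937 of 1170 in the list) and 3 events in G1 replicate 2 (score of the first 234, place 1036 of 1379), so it was low in both lists. The reverse pattern, both G2 lists and neither G1 list, was found at 0 loci. The paper also reports ORC sites outside origins that were bound in G1 with little or no binding in G2. Loci of that pattern are nearly absent from these lists, so the counts here do not speak to such sites. Whether the lists were limited to origins before they were deposited is not stated in the sources used here. Such a choice would itself favour loci occupied in both phases, and its part was not tested. The number of occupied loci was 350 ± 2.83 (SD, n = 2 lists) in G1 and 339 ± 19.8 in G2, a difference smaller than the spread of the G2 lists (exact permutation test over the 4 lists, two-sided, p = 1, where the smallest p this design allows is 0.333).

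The number of events per locus rose with the length of the list, as it must where lists occupy similar numbers of loci. It did not separate the phases. Occupied loci held on average 3.32 and 3.96 events in G1 replicates 1 and 2, and 6.17 and 2.65 events in G2 replicates 1 and 2. The 2 G2 lists therefore lay on either side of both G1 lists. The means were 3.64 ± 0.452 (SD, n = 2 lists) in G1 and 4.41 ± 2.49 in G2 (exact permutation test, two-sided, p = 1). A single event was left at 7.39% and 9.48% of the occupied loci in G1, and at 2.83% and 26.5% in G2. The greatest number of events at a locus was 9 and 10 in the G1 lists and 15 and 7 in the G2 lists. Omission of G2 replicate 1 turned the difference in events per locus from -0.766 to 0.994, and omission of G2 replicate 2 moved it to -2.53.

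The extent of the bound region behaved in the same way. The spread, the distance from the first to the last event of a locus with at least 2 events, had a median of 157.5 and 186 bp in the G1 lists and of 249 and 130 bp in the G2 lists. Neighbouring events of a list lay a median of 43 and 37 bp apart in G1 and 28 and 48 bp apart in G2. Longer lists thus had wider loci with closer events. At loci with exactly 3 events in a list, the median spread was 128.5, 191, 126 and 119 bp in the same order of lists, so that G1 replicate 2 stood apart there and the others lay within 10 bp of each other. With 2 events the medians were 71, 79, 32.5 and 79.5 bp, and G2 replicate 1 was the low list. With 4 events they were 187, 193, 177 and 176.5 bp, with both G1 lists above both G2 lists. The phases could not be separated by spread (exact permutation test, two-sided, p = 1) or by spacing (exact permutation test, two-sided, p = 1). The difference in median spread was -17.75 bp (G1 minus G2), and it was 41.75 bp without G2 replicate 1 and -77.25 bp without G2 replicate 2.

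To take out list length, each list was cut to its first 861 events, the length of the shortest. Occupied loci then numbered 335 and 259 in G1 and 272 and 325 in G2, with 2.57, 3.32, 3.17 and 2.65 events per locus. The spread was 100.5, 121.5, 99 and 130 bp and the spacing 40, 29, 25 and 48 bp. G1 replicate 1 and G2 replicate 2 thus had many loci with few events, and G1 replicate 2 and G2 replicate 1 had fewer loci with more events, across the phases. The share of loci with 1 event was the exception, with 21.8% and 17.4% in the G1 lists below 25.4% and 26.5% in the G2 lists (exact permutation test, two-sided, p = 0.333, the smallest possible, so no call can be made).

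**Figure D1:**
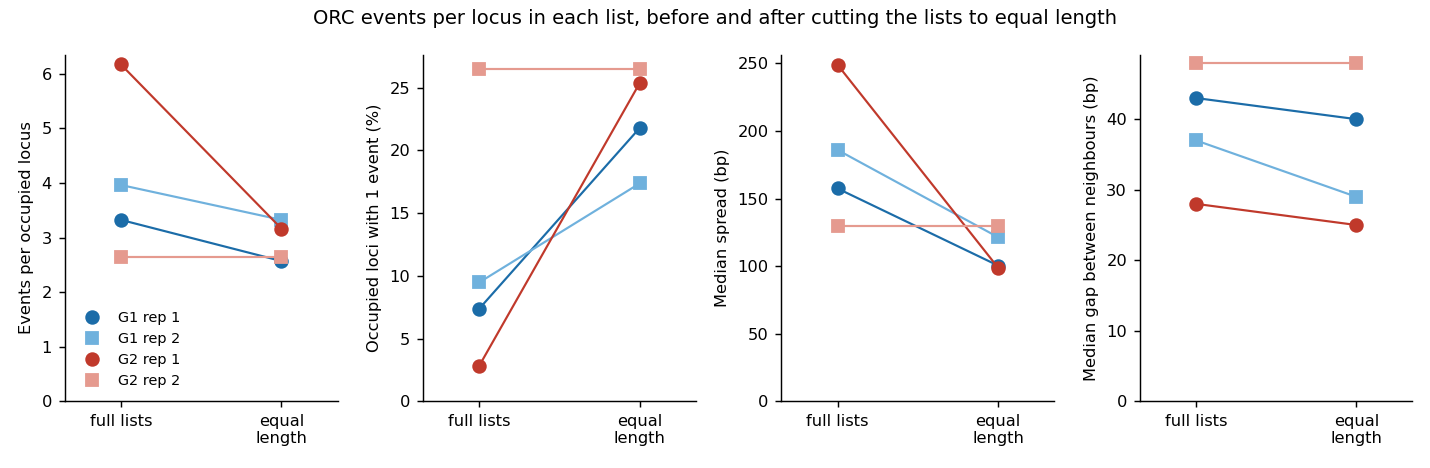
Events per occupied locus, percent of occupied loci with 1 event, median spread in bp and median gap in bp for each of the 4 ORC lists (points), with the full lists on the left and the lists cut to 861 events on the right of each panel. The G2 lists (red) lie on either side of the G1 lists (blue) in the full lists, and at equal length G1 replicate 2 and G2 replicate 1 come close in events per locus.

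At single loci, events were counted in the lists of equal length and compared between phases over the 322 common loci. With limma and Benjamini-Hochberg adjustment, 0 loci passed an adjusted p of 0.05 (0.0% of 322, lowest adjusted p = 0.225), and 15 loci (4.66%) had an unadjusted p under 0.05, of which 6 (1.86%) had more events in G1 and 9 (2.8%) more in G2. Counts of both lists of a phase lay above both of the other at 26 loci for G1 (8.07%) and at 27 loci for G2 (8.39%). The locus with the largest difference was ARS514.5 on chromosome V, between RNR1, which encodes the large subunit of ribonucleotide reductase, and TDA2. It had 0 events in both G1 lists and 6 in both G2 lists at equal length, a difference of -6 events (SE 0.466, limma adjusted p = 0.225). In the full lists it had 1 and 3 events in G1 and 9 and 6 in G2, so the locus was bound in both phases but its G1 events came late in their lists. ARS422, between ECM18 and SWF1, had 1 and 3 events in G1 against 7 and 6 in G2. ARS305 had 1 and 4 against 8 and 5, ARS453 had 3 and 2 against 6 and 6, and ARS1308 had 3 and 3 against 9 and 5. In the other direction, ARS601/ARS602 had 5 and 7 events in G1 and 3 and 1 in G2. ARS1229 had 4 and 8 against 2 and 3, ARS314 had 4 and 4 against 1 and 1, ARS1113 had 3 and 6 against 2 and 1, and ARS1412 had 4 and 4 against 0 and 2. These 10 loci are those with the largest differences among the non-overlapping, so their size is a description of how they were chosen. At ARS1412 the full lists held 4 and 4 events in G1 and 7 and 2 in G2, so the direction there depended on the cut. In the full lists the counts of the phases also overlapped at ARS314, ARS601/ARS602, ARS1113, ARS1229 and ARS1308. They touched at ARS305 and ARS453 and stayed apart at ARS514.5 and ARS422.

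Spread was compared at the 218 loci with at least 2 events in each list. With limma, 0 loci (0.0%) passed the adjusted threshold and 6 (2.75%) had an unadjusted p under 0.05, of which 2 (0.917%) were wider in G1 and 4 (1.83%) wider in G2. The widest locus in both phases was ARS513.7 on chromosome V, between FCY22 and CEM1. Its events covered 315 and 679 bp in the G1 lists and 796 and 203 bp in the G2 lists, so the replicates of each phase differed more than the phases. ARS707 was wide in G1 with 415 and 384 bp and narrower in G2 with 225 and 43 bp (limma adjusted p = 0.998), and ARS1520 had 369 and 363 bp in G1 and 268 and 144 bp in G2. ARS219, next to the ribosomal protein gene RPS6B, spanned 330 and 340 bp in G1 and 388 and 374 bp in G2. ARS810 lies in YHR054C next to the copper metallothionein gene CUP1-1, in repeated sequence, and spanned 387 and 355 bp against 406 and 302 bp. ARS902 had 387 and 107 bp in G1 and 419 and 377 bp in G2, so that G1 replicate 2 alone was narrow, and it also lies in repeated sequence.

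The position of ORC relative to the ACS did not separate the phases. Distances are counted from the middle of the best match of at least 10 letters, positive towards the 3′ end of the T-rich strand. The median event lay at 19 and 6 bp in the G1 lists and at 13 and 17 bp in the G2 lists, so that the G1 lists stood farther apart than the phases (exact permutation test, two-sided, p = 1). Within 50 bp of the ACS lay 50.8% and 48.5% of the events in G1 and 44.5% and 50.6% in G2. Events more than 100 bp downstream made up 13.3% and 12.5% in G1 and 16.1% and 12.4% in G2, and those more than 100 bp upstream 12.7% and 16.6% against 16.3% and 12.4%. At equal list length the shares beyond 100 bp ranged from 7.03% to 12.4% on either side, with no phase below the other.

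The first-listed event of a locus, which is the event the authors' list placed highest there, lay a median of 30 bp apart between the G1 replicates and 36.5 bp apart between those of G2. For lists of different phases the median was 31 to 39 bp, so a locus was placed about as differently within a phase as between the phases. With limma, 0 of 322 positions (0.0%) passed the adjusted threshold (lowest adjusted p = 0.290), and 20 (6.21%) had an unadjusted p under 0.05. ARS707 and ARS902 had this lowest value, with first events 180 and 173.5 bp apart between the phases on average. Both fall outside the choice of loci that follows. At 21 loci the first event lay within 10 bp in both replicates of each phase. Of these, 10 were shifted by at most 10 bp between the phases and 6 by more than 20 bp, with a median of 11 bp.

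The largest of these shifts was at ARS433 on chromosome IV, between NKP1 and ATO3. The first event lay at 1240937 and 1240931 in the G1 lists and at 1241013 and 1241022 in the G2 lists, 83.5 bp apart on average (SE 18.1, limma adjusted p = 0.718). In G1 it sat on the full ACS match, at -2 and -8 bp, and in G2 it lay 74 and 83 bp downstream. The best match within 40 bp of the first event of each phase is shown with the ACS letters in capitals, and the match near the G2 event holds 8 of 11 letters.
ARS433 at the first G1 event (chrIV:1240914-1240964, plus strand): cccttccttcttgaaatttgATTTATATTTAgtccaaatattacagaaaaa
ARS433 at the first G2 event (chrIV:1241001-1241051, minus strand): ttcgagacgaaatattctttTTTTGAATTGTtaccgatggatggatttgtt
ARS603 at the first G1 event (chrVI:68825-68875, minus strand): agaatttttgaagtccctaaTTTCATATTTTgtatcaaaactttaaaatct
ARS603 at the first G2 event (chrVI:68886-68936, minus strand): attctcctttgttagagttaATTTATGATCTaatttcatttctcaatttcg
ARS603 on chromosome VI, between MIL1 and RIM15, followed with 68848 and 68841 in G1 and 68917 and 68909 in G2, 68.5 bp apart (SE 18.1, limma adjusted p = 0.760). Its G1 events lay 2 and 9 bp from a match of 10 letters, and the match within 40 bp of the G2 event holds 9. ARS603 ranked low in all lists, so few events stand behind the shift. The other 3 of the 5 largest shifts were 37.5 bp at ARS206, 35.5 bp at a locus on chromosome XVI (centre 12931) and 27.5 bp at ARS1001, a subtelomeric origin 318 bp from the end of chromosome X. The last 2 lie in repeated sequence. The loci were chosen for replicates that lay close together, so their small spread is part of the choice. When the mean position of all events of the locus was used, the direction turned at ARS206, ARS603, ARS1001 and the locus on chromosome XVI.

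**Figure D2:**
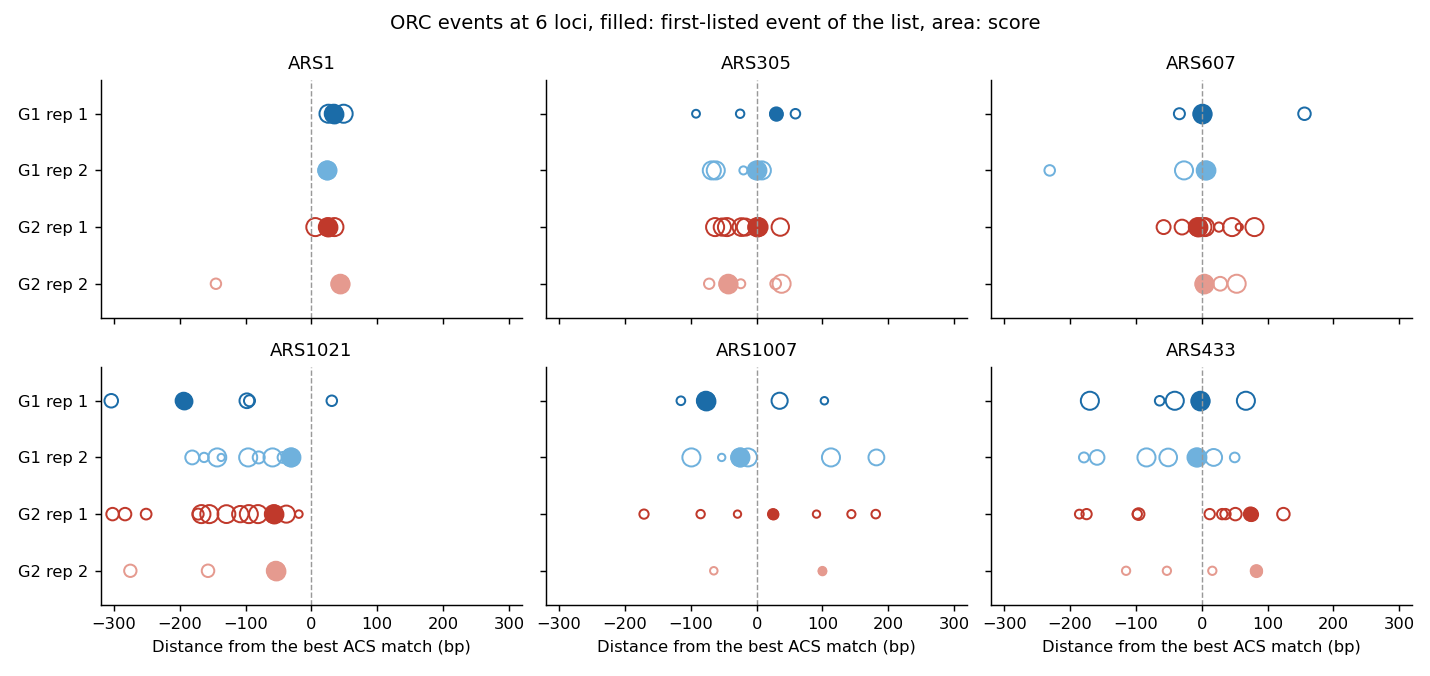
ORC events at 6 loci in each of the 4 lists (rows), by distance in bp from the middle of the best ACS match (dashed line), with circle area proportional to the score above a fixed minimum and the first-listed event filled. At ARS1 the first event stayed between 24 and 44 bp in all lists, whereas at ARS433 it lay at -2 and -8 bp in G1 and at 74 and 83 bp in G2.

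Events shared between the phases were compared with those shared between replicates. At equal length, 73.5% of events had an event of the other list within 50 bp for the G1 replicates and 74.2% for the G2 replicates. For the 4 pairs of a G1 and a G2 list the share was 70.3%, 72.0%, 72.4% and 76.2%, and the highest of these, between G1 replicate 2 and G2 replicate 1, exceeded both replicate pairs.

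For the strength of binding, the score of an event was used only through its order, because it is not comparable between lists. The score runs in whole numbers from 67 to a maximum of 1000, here called the cap. The first event was at the cap at 214 and 191 of the 322 common loci in the G1 lists and at 121 and 56 in the G2 lists. Each locus was therefore given a rank, the percentile of its first-listed event in the order of the 322 loci, with 100 the highest. The rank compares loci within a list, and its mean is the same in each list, so a general rise or fall of ORC between the phases cannot appear in it. Among the 172 loci at the cap in both G1 lists, where order cannot follow the score, Spearman's rho of the places across loci was 0.479, and among the 51 loci at the cap in both G2 lists it was 0.510. Loci are not independent replicates, and these values are descriptions.

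No locus passed the adjusted threshold for a difference in rank, with 0 of 322 loci (0.0%) called by limma (lowest adjusted p = 0.255). An unadjusted p under 0.05 was found at 43 loci (13.4%), with 29 higher in G1 (9.01%) and 14 higher in G2 (4.35%). Both G1 ranks lay above both G2 ranks at 69 loci (21.4%), and both G2 ranks lay above both G1 ranks at 72 loci (22.4%). The ranks of the phases overlapped at the other 181 loci. The balance of the directions depended on the scale of the rank. When each locus was instead given the percentile of its highest score among all events of a list, 46 loci (14.3%) were higher in both G1 lists and 113 (35.1%) in both G2 lists. Over all common loci the mean rank was higher in G1 at 152 and higher in G2 at 170.

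Origins near the silent mating-type loci had a high rank in both phases. ARS301, at the HML silencer next to VBA3, had ranks of 98.0 and 97.0 in the G1 lists and 97.7 and 96.7 in the G2 lists. ARS302, on the other side of HML, had ranks of 99.8 and 94.6 in G1 and 97.4 and 98.6 in G2. ARS317, at the HMR silencer next to HMRA2, had 96.7 and 74.7 against 92.4 and 96.1. ARS1, a widely studied origin next to TRP1 of the tryptophan pathway, had 83.7 and 99.5 in G1 and 99.5 and 98.3 in G2. At ARS301 the first event lay within 16 bp in the 4 lists, from 11284 to 11300. ARS303/ARS320, close to ARS302, was lower and varied more, with 59.8 and 22.8 in G1 and 36.8 and 26.9 in G2.

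The early-firing origins ARS305, ARS607 and ARS1021 had a common pattern, a low rank in G1 replicate 1 and a high rank in the other 3 lists. ARS305, between APA1 and YCL049C on chromosome III, had ranks of 8.85 and 81.5 in G1 and 87.4 and 89.3 in G2. Its first event had a score of 436 in G1 replicate 1 and the cap of 1000 in the other lists. ARS607 had 39.6 and 93.3 in G1 and 93.0 and 92.4 in G2, and ARS1021, between the divergent genes MET5 and IML1, had 19.4 and 84.0 against 88.4 and 97.0. At ARS607 the first event was at the cap in all 4 lists, so its ranks differ only by order among tied scores. At ARS1021 the first event had a score of 769 in G1 replicate 1 and was at the cap in the other lists. Both G1 ranks lay below both G2 ranks at ARS305 and ARS1021 and not at ARS607. At ARS305 the difference was -43.2 (SE 24.4, limma adjusted p = 0.492), and without G1 replicate 1 it was -6.83. At ARS1021 it was -41.0 (SE 22.2, limma adjusted p = 0.481) and -8.70 without that replicate. The difference at both thus rested on G1 replicate 1. Events at ARS1021 lay upstream of the best ACS match, apart from 1 event of G1 replicate 1 at 31 bp, with the first event at -194 and -31 bp in G1 and -57 and -54 bp in G2.

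Other origins used in studies of single origins varied in direction. ARS306 had 1.09 and 21.3 in G1 and 34.6 and 41.8 in G2, a difference of -27.0 (SE 10.7, limma adjusted p = 0.364) that was -16.9 without G1 replicate 1. ARS522, also known as ARS501 and located on the right arm of chromosome V between DMC1 and ISC10, had the opposite order with 68.2 and 30.9 in G1 and 14.8 and 7.61 in G2 (difference 38.4, SE 14.6, limma adjusted p = 0.362), and the difference was 19.7 without G1 replicate 1. ARS307 had 72.8 and 12.6 in G1 and 56.1 and 77.5 in G2, and ARS606 had 79.0 and 23.8 against 77.8 and 65.4, so that G1 replicate 2 was the low list there. ARS309, ARS609, ARS1012 and ARS1211 overlapped between the phases. Of the 17 loci in this group, the phases did not overlap at 4, against 43.8% of all common loci.

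Among the loci with ranks higher in G1, the largest difference was at ARS1007 on chromosome X, between YJL163C and JJJ2. It had 59.2 and 68.8 in the G1 lists and 9.16 and 6.06 in the G2 lists, a difference of 56.4 (SE 8.88, limma adjusted p = 0.255). Its first event was at the cap in both G1 lists and had scores of 235 and 94 in the G2 lists, and leaving out any 1 list gave differences of 51.6 to 61.2. ARS1524, next to the oxysterol-binding protein gene HES1, had 82.5 and 89.6 against 10.7 and 54.8, and its difference of 53.3 was 31.2 without G2 replicate 1. ARS102, at the left end of chromosome I, had 43.0 and 96.1 against 20.3 and 18.8, and proARS1301 at the left end of chromosome XIII had 53.6 and 87.1 against 24.1 and 18.2, with its 201 bp wholly in repeated sequence. Without G1 replicate 2 the difference was 23.4 at ARS102, and at proARS1301 it was 32.5 in place of 49.2. ARS801, 5432 bp from the left end of chromosome VIII, had 78.1 and 77.8 in G1 and 32.8 and 33.7 in G2, with replicates less than 1 point apart (difference 44.7, SE 8.30, limma adjusted p = 0.255). It also lies in repeated sequence, with 53.3% of the 50-mers around its centre found elsewhere in R64. The others of the 10 were ARS1519, ARS1212 next to the galactose permease gene GAL2, ARS1414 next to the chitin synthase gene CHS1, ARS1238 next to SMC6 and ARS1630 next to JIP5, with differences from 39.4 to 49.1, of which that of ARS1630 was 22.4 without G2 replicate 1. At each of the 10 the first event was at the cap in both G1 lists and below it in both G2 lists. The 10 were chosen by rank, which follows the score closely, so this is part of the choice. Of all common loci, 66.5% and 59.3% had a first event at the cap in the G1 lists and 37.6% and 17.4% in the G2 lists.

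Among the loci with ranks higher in G2, ARS922 on chromosome IX, between the allantoicase gene DAL2 and DCG1, had 17.9 and 78.1 in G1 and 98.3 and 94.9 in G2, a difference of -48.6 (SE 20.8, limma adjusted p = 0.379) that fell to -18.5 without G1 replicate 1. ARS514.5 had 0.155 and 9.47 in G1 and 56.4 and 46.1 in G2 (difference -46.4, SE 9.37, limma adjusted p = 0.255), and it was also the locus with the largest difference in event number. ARS1218, between ECM22 and CDC42, which encodes a GTPase of cell polarity, had 30.6 and 34.0 against 77.5 and 77.2, with replicates within 4 points in each phase (difference -45.0, SE 8.36, limma adjusted p = 0.255). ARS1103, next to the kinase gene TOR2, had 48.0 and 49.5 against 84.3 and 90.5. Its first event was at the cap in all 4 lists, so this difference lies in the order among tied scores. ARS1114.5, between FOX2 and TOF2, had 6.99 and 12.0 against 58.2 and 44.6. ARS415 and ARS1114.5 lie less than 20000 bp from a centromere. ARS508 had 19.7 and 58.2 in G1 and 83.4 and 66.6 in G2, a difference of -36.0 that was -16.8 without G1 replicate 1. ARS432, between the hexose transporter genes HXT7 and HXT6, had 41.1 and 39.3 against 84.6 and 66.3. The scores of its first event were 1000 and 930 in G1 and 1000 and 500 in G2.

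**Figure D3:**
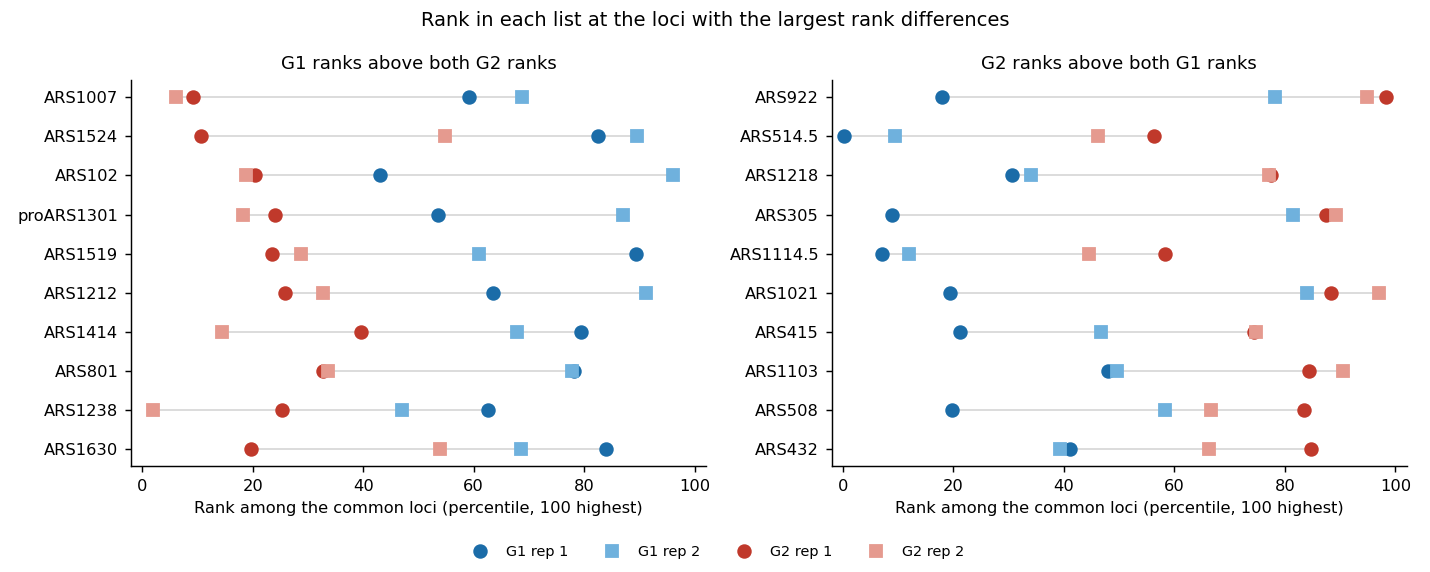
Rank of the first-listed event among the 322 common loci (percentile, 100 highest) in each of the 4 lists (points), for the 10 loci with the largest rank difference in each direction among those whose phases do not overlap. G1 replicate 1 is far below G1 replicate 2 at ARS922, ARS305 and ARS1021, whereas both G1 ranks lie within 10 points of each other at ARS1007, ARS801 and ARS1218.

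Ranks near chromosome ends and near centromeres were compared as groups, which were chosen after the ranks had been seen. At the 38 common loci less than 20000 bp from a chromosome end, the median rank was 56.7 and 77.3 in the G1 lists and 42.1 and 37.7 in the G2 lists. Both G1 medians were higher than both G2 medians, and the mean of the medians differed by 27.1 points. The median of the differences at single loci was smaller, at 10.8 points. Both G1 ranks lay above both G2 ranks at 14 of these loci (36.8%) and below them at 1, against 21.4% and 22.4% of all common loci. The mean rank was higher in G1 at 27 of the 38. At the 31 common loci less than 20000 bp from a centromere, the median rank was 64.4 and 51.1 in G1 and 72.5 and 73.8 in G2, a difference of -15.4 points. The median of the differences at single loci there was -15.1 points. There 14 loci (45.2%) ranked higher in both G2 lists and 1 in both G1 lists, and the mean rank was higher in G2 at 25 of the 31. At the 253 other loci the medians were 47.4, 48.6, 48.6 and 49.8. Each difference of medians has the smallest p that this design allows (exact permutation test over the 4 lists, two-sided, p = 0.333), so neither can be called.

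Near the ends the difference of medians was 30.4 points within 10000 bp (23 loci) and 17.7 points within 40000 bp (61 loci). Within 40000 bp, 19 loci (31.1%) ranked higher in both G1 lists and 7 (11.5%) in both G2 lists. The shares over all common loci were 21.4% and 22.4%. Near the centromeres the difference was -11.3 and -11.0 points at these distances. Leaving out any 1 list gave 16.8 to 37.4 points near the ends and -22.0 to -8.70 points near the centromeres. When loci were ranked by the percentile of their highest score among all events, the differences were 14.9 and -7.56 points, and 7 loci near ends (18.4%) were higher in both G1 lists and 9 (23.7%) in both G2 lists, against 14.3% and 35.1% of all common loci. Near centromeres 2 loci (6.45%) were higher in G1 and 20 (64.5%) in G2 on this measure. Subtelomeric DNA is repeated between chromosomes, and reads from copies cannot be assigned to 1 place. Of the 38 loci, 15 lie in repeated sequence, in which more than 50% of the 50-mers in 201 bp occur elsewhere in R64, against 17 of all 322 common loci. The 23 end loci outside repeats had medians of 62.0 and 76.9 in G1 and 40.8 and 42.1 in G2. Of these, 8 (34.8%) ranked higher in both G1 lists and 1 (4.35%) in both G2 lists. Some of these 23 hold repeated 50-mers below the limit, up to 48.0% at a locus on chromosome IX. The end loci with none differed in both directions, from -15.7 points at ARS1235 to 31.1 at ARS700.5, with ARS301 in the middle at 0.311. None of the 31 loci near centromeres lies in repeated sequence. The loci near ends had a median of 5 MCM2-7 events in each of the MCM2-7 lists and those near centromeres 6 and 5, and 60.5% of the former and 48.4% of the latter had a full ACS match, against 36.0% of all common loci.

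**Figure D4:**
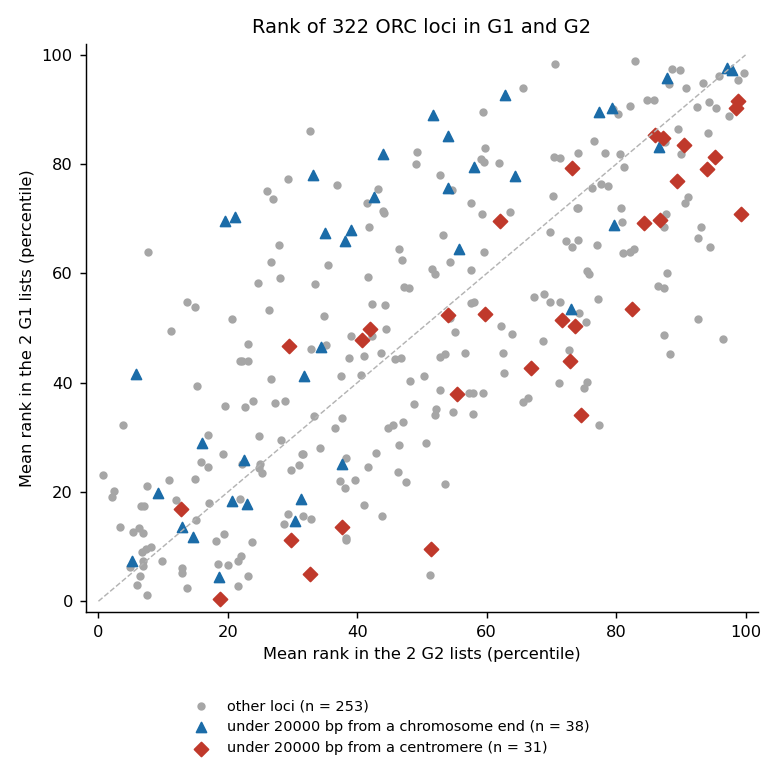
Mean rank in the 2 G1 lists against mean rank in the 2 G2 lists for the 322 common loci (percentiles), with loci near a chromosome end as triangles and loci near a centromere as diamonds. Of the triangles 27 of 38 lie above the dashed line of equal rank, and 25 of 31 diamonds lie below it.

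Single loci of these groups show the range. ARS802 on chromosome VIII had 78.7 and 76.9 in the G1 lists and 62.0 and 66.9 in the G2 lists, and ARS700.5 on chromosome VII had 89.0 and 81.2 against 52.6 and 55.4. ARS201 on chromosome II had 62.0 and 85.9 against 45.5 and 39.6. ARS802 and ARS700.5 have no repeated 50-mers around the centre, and ARS201 has 13.2%. ARS229, the locus near an end with both G2 ranks higher, had 32.5 and 17.9 against 34.3 and 40.8. ARS301, ARS302 and ARS609 also lie near ends and did not differ in this way. Near centromeres, ARS208, 355 bp from the centromere of chromosome II, had 57.3 and 49.8 in G1 and 78.7 and 86.2 in G2. ARS719 had 57.9 and 83.7 against 98.6 and 99.8, ARS1209 had 39.9 and 48.0 against 85.2 and 60.4, and ARS108 had 2.33 and 7.61 against 34.9 and 30.6. ARS1512 was the locus near a centromere that ranked higher in both G1 lists, with 36.2 and 57.3 against 29.0 and 30.0. The loci of this paragraph were chosen after their values had been seen.

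**Figure D5:**
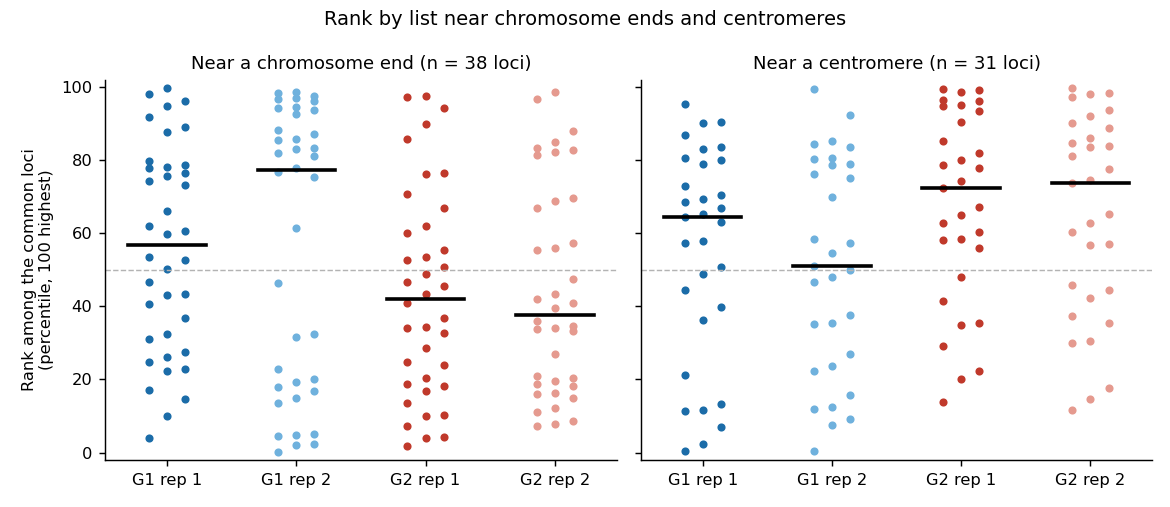
Rank among the common loci (percentile, 100 highest) in each of the 4 lists for the 38 loci less than 20000 bp from a chromosome end and the 31 loci less than 20000 bp from a centromere, with a point per locus and a bar at the median. The bars near ends are at 56.7 and 77.3 in G1 and at 42.1 and 37.7 in G2, and those near centromeres at 64.4 and 51.1 in G1 and at 72.5 and 73.8 in G2.

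The rank was also set beside features of the sequence. No group could pass a test between the phases, since the smallest p that this design allows is 0.333 (exact permutation test over the 4 lists, two-sided). Loci with a full ACS match had median ranks of 60.9 and 63.2 in G1 and 58.1 and 61.5 in G2 (116 loci). Loci with 10 letters had 45.8 and 47.4 against 46.1 and 46.7 (165 loci), and loci with fewer had 31.2 and 31.8 against 31.5 and 34.3 (41 loci). In each list the median was thus lower with fewer matching letters. The 264 loci with an ARS in the annotation had medians of 53.6 to 55.6 in the 4 lists, and the 58 without had 25.8 to 27.6. Between divergent genes the medians were 67.5 and 57.3 in G1 and 59.3 and 55.3 in G2, and between convergent genes 43.6 and 42.5 against 43.8 and 46.6. Both G1 medians of convergent loci lay below both G2 medians, while 27 of these loci (26.0%) ranked higher in both G1 lists and 17 (16.3%) in both G2 lists. The shares over all common loci were 21.4% and 22.4%. The 17 loci with a centre inside a gene had low medians, 5.43 and 13.2 in G1 and 12.3 and 30.6 in G2. Of these, 1 (5.88%) ranked higher in both G1 lists and 5 (29.4%) in both G2 lists. Across the 322 loci, Spearman's rho between the rank difference and the number of ACS letters was 0.0252, with GC content -0.0877, and with MCM2-7 events 0.148 and 0.154 for the MCM2-7 replicates. It was -0.1825 with the distance to the chromosome end and 0.225 with the distance to the centromere. These are descriptions over loci that share the same 4 lists.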

How the data were processed

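The authors aligned the ChIP-Exo reads with Bowtie2 (version 2.3.5) at default settings to sacCer3, which is R64, and called events with ChExMix on each replicate, without motif discovery. The score in each list was written by the authors' caller before the lists were deposited and is not defined in the sources used here. Each list runs from high to low score, closely but not strictly. Whether duplicate or multiply mapped reads were removed is not given in the sources used here.

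Events of the 4 ORC lists were chained up to 250 bp apart. Chromosome ends, centromeres, genes and ARS names come from the R64 annotation in RefSeq, and ARS names missing there from the study's list of origin elements. Rank, event number at equal list length, spread and first position per locus were compared with limma (version 3.58.1 in R 4.3.3) as G1 minus G2, 2 lists against 2, with Benjamini-Hochberg adjustment over all loci fitted and a threshold of 0.05. Values per list were compared with exact permutation tests over the 4 lists. The fits were run on simulated ranks, with recovery required only for a shift larger than ranks can differ. The simulation therefore does not show which differences the fits could find. Other steps used pandas 2.3.3 and NumPy 2.4.6 in Python 3.11.15, and Matplotlib 3.10.9 for the figures.

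Loci are named if they hold an origin from a list of those used in studies of single origins. Loci are also named if among the 10 largest rank or 5 largest event number differences without overlap in each direction. So are the 5 widest of each phase and the 5 largest shifts with replicates within 10 bp. Loci with events in both lists of 1 phase only complete the rule. Others are said in the text to be chosen after their values were seen. The members, measures and lists were chosen with earlier results of these data known. Lists of the same number did not deviate together (correlation of deviations -0.0024 for rank and -0.217 for event number), so the numbers were not taken as pairs. Alternatives were equal list length, events at or above the median score, chaining at 150 and 500 bp, other rank scales and each list left out.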

Additional observations from a re-analysis of the deposited data

Results flagged for a closer look

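The difference in median rank (G1 minus G2) was 42.5 points higher at loci near a chromosome end than at loci near a centromere, from 27.1 and -15.4 points. As medians of the differences at single loci, the values were 10.8 and -15.1 points. The contrast was picked out because both G1 lists lay above both G2 lists at the ends and below both at the centromeres. The difference between the position groups was not tested. Ranks of loci in 1 list are tied to each other, since a rise of some loci lowers others, and repeated sequence is found at 15 of 38 end loci and at 0 of 31 centromere loci. The part of either in the difference was not tested beyond the values without loci in repeated sequence. These were 62.0 and 76.9 in G1 against 40.8 and 42.1 in G2 at the ends. Some of the end loci kept there still hold repeats below the limit used. End loci with no repeats differed in both directions, from -15.7 points at ARS1235 to 31.1 at ARS700.5. The middle value among them was 0.311, at ARS301, against a median of 10.8 points over all 38 end loci.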

How the results depend on the processing

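Calls across loci stayed at 0 for rank, event number, spread and position under each alternative tried. Ranking by the percentile of the highest score among all events gave 46 loci higher in both G1 lists in place of 69 and 113 higher in both G2 lists in place of 72, and differences of 14.9 points near ends and -7.56 near centromeres. Many first events are tied at the cap under that measure, more in G1. Counting events in the full lists turned ARS1412 to -0.5 events, and the mean position of all events turned ARS206 to 28.8 bp, ARS603 to 13.6 bp, ARS1001 to 31.6 bp and the locus on chromosome XVI (centre 12931) to 27.0 bp. The cause was not tested. Leaving out each list in turn gave -2.53 to 0.994 events per locus, -18.0 to 5.60 percentage points of loci with 1 event, -77.25 to 41.75 bp of spread and -8 to 12 bp of spacing (G1 minus G2), so that these differences changed sign with the list left out.

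Pairing lists by replicate number, with the number as a block, also gave 0 calls for rank (lowest limma adjusted p = 0.283 after Benjamini-Hochberg adjustment), event number, spread and position, and left the list differences as they were, for example -0.766 events per locus. For event number, 5 loci had an unadjusted p under 0.05 with this block, 38 with the crossed pairing, added after the data had been seen, and 15 without a block. With 2 lists per phase and the read depth of each unknown, a difference at a single locus must be large and alike in both replicates to pass, and absence of an event cannot be told from low depth.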
